A study of Homo sapiens with 18 samples.

Results

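The ATP-binding cassette (ABC) drug efflux transporters were examined in 3 pairs of platinum-sensitive and platinum-resistant ovarian cancer cell lines. The set was fixed by name as 10 genes, ABCB1, ABCC1, ABCC2, ABCC3, ABCC4, ABCC5, ABCC10, ABCG2, ABCA1 and ABCB6. Of these, 6 had a row among the 12853 genes of the RNA-seq table, namely ABCC1, ABCC3, ABCC4, ABCC5, ABCC10 and ABCA1. ABCB1, ABCC2, ABCG2 and ABCB6 had no row under their symbol or their Ensembl identifier and were not analysed here, and no level can be given for them. The study profiled untreated cultures of 6 human lines by RNA-seq, with 3 replicates of each line and 18 libraries in all. A2780 is a sensitive line that the labels call endometrial/ovarian, and CP70 is a platinum-resistant derivative selected from it in culture. PEA1 and PEA2 are a sensitive and a resistant line from ascites of one donor with high-grade serous cancer. PEA1 was taken before platinum treatment and PEA2 after resistant relapse. PEO1 and PEO4 are a sensitive and a resistant line from another such donor. Both were taken after platinum treatment, PEO1 before and PEO4 after clinical resistance. The sensitive lines PEA1 and PEO1 thus differ in prior treatment of the donor. All 6 lines were grown in RPMI-1640 medium with glutamine and fetal bovine serum, and none was given drug for the RNA-seq. Nothing in the labels says that the replicates came from separate cultures, so the p-values measure only the spread between these libraries, which may be technical. Each pair is also a single derivation, so resistance and any other difference between the 2 lines of a pair cannot be told apart.

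ABC transporters are membrane proteins that bind and hydrolyse ATP to drive substrates across a bilayer. The ABCC branch, the multidrug resistance-associated proteins, exports organic anions, including glutathione, glucuronate and sulfate conjugates, and cisplatin can form a glutathione conjugate in the cell. ABCA1 is different in kind, since it loads cholesterol and phospholipid onto apolipoprotein A-I and is known as a target of the oxysterol receptors (LXR).

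Each library held between 1344098 and 7067336 reads on genes with a row, with PEA1 the shallowest line (1344098 to 1670866 reads). Values are log2 CPM, the reads of a gene scaled to the depth of its library and set on a log2 scale, and 3 reads corresponded to between 0.452 and 2.18 CPM. Differences are log2FC, the resistant line minus the sensitive line on the log2 CPM scale, from limma fitted across all 12853 genes with a false discovery rate (FDR) by Benjamini-Hochberg. The cell labels were checked against 9 markers of serous ovarian epithelium. All 9 had more than 3 reads in every library of PEA2, 8 did in PEO1 and in PEO4, and 5 in PEA1. KRT7 and MSLN had at most 3 reads in PEA1, as did SOX17 in PEO1 and PEO4. PAX8, a transcription factor of Müllerian epithelium, had 379 to 595 reads in PEA1, 543 to 1276 in PEA2, 438 to 1037 in PEO1 and 586 to 747 in PEO4. In A2780 PAX8 had 0 reads in every library and 8 of the 9 markers had at most 3 reads, and in CP70 PAX8 had at most 1 read and 5 of the markers had at most 3.

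The levels of the 6 transporters per length were compared first, since only that scale allows one gene to be set beside another. The level was taken as CPM divided by the merged exon length of the gene in kilobases (CPM per kilobase), on the recovered reads. Here CPM was taken on the unscaled total of reads on genes with a row, unlike the log2 CPM values. The scaled library sizes behind log2 CPM were 0.863 to 1.12 times these totals, so levels and log2FC can differ between lines. ABCC1, the broad-range exporter of conjugated anions also called MRP1, was the most abundant of the 6 in CP70, PEA2, PEO1 and PEO4. It reached 28.9 ± 1.14 (SD, n = 3) in PEO4 and 27.5 ± 0.954 in PEO1, where it made up 76.4% and 75.0% of the summed level of the 6 genes. In A2780 the levels of ABCC1 (14.4 ± 0.532) and ABCC4 (14.4 ± 0.682) were within their spread of each other. In PEA1 it was ABCC4, the exporter of cyclic nucleotides and prostaglandins also called MRP4, that led with 23.6 ± 3.11, ahead of ABCC1 at 13.1 ± 2.25, ABCC3 at 12.3 ± 0.573 and ABCA1 at 11.8 ± 2.09. The latter 3 did not differ beyond their spread.

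PEA1 thus had 4 of the 6 genes above 10 CPM per kilobase, A2780 had 2 and the other lines had 1. The summed level of the 6 was 64.5 ± 3.06 in PEA1 against 29.9 ± 1.41 in PEA2. It was 36.5 ± 1.04 in A2780 against 24.1 ± 0.374 in CP70. In PEO1 and PEO4 it was 36.7 ± 1.30 and 37.8 ± 0.904, and the libraries of these lines overlapped. These sums are a description of the 6 genes with a row and hold nothing on the other 4.

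**Figure D1:**
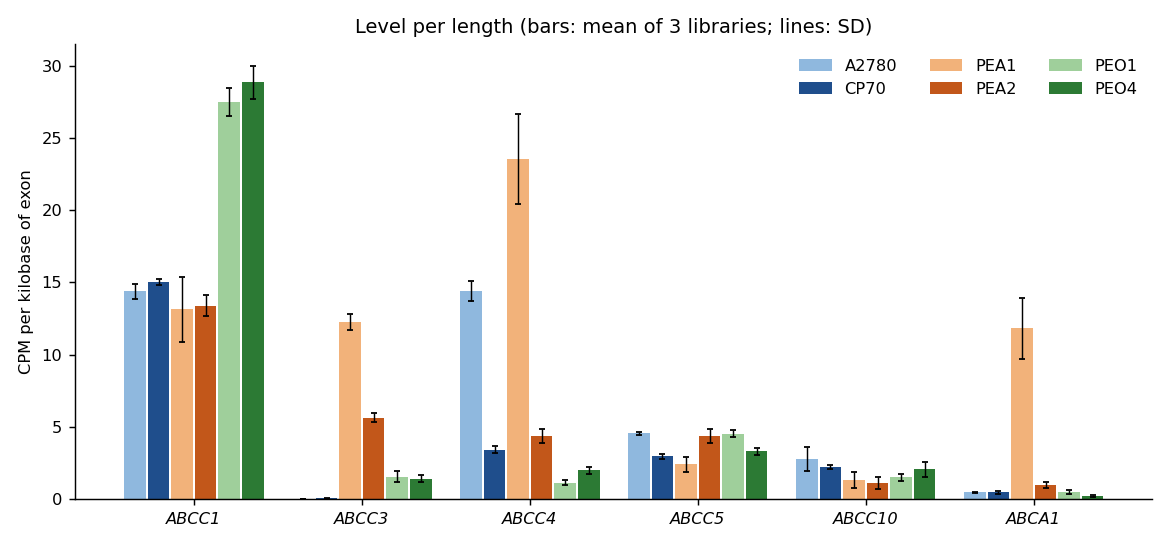
Level of each transporter in each line, in CPM per kilobase of merged exon (unscaled library totals, linear axis from 0), as the mean of 3 libraries with lines for the SD. ABCC1 stood at 27.5 and 28.9 in PEO1 and PEO4, ABCC4 stood at 23.6 and 4.36 in PEA1 and PEA2 and at 14.4 and 3.40 in A2780 and CP70, and the mean of ABCA1 exceeded 1 in PEA1 alone.

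The promoters of the 3 transporters whose mRNA changed in at least 2 pairs are shown here as the sequences in front of the members with the clearest changes, with 1 motif marked in each. Each is the 250 bases before the RefSeq gene start on the gene's own strand, 5′ to 3′, from the RefSeq table of build GRCh38.p14, which held 4 of the 6 genes (ABCC4, ABCC5, ABCC10 and ABCA1).

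ABCA1, chr9:104928156-104928405, minus strand: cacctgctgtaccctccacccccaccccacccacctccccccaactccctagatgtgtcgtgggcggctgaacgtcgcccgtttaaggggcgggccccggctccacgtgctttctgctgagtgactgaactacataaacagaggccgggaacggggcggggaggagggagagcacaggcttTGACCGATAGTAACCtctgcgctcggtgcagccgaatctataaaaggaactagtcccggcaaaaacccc

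ABCC4, chr13:95301452-95301701, minus strand: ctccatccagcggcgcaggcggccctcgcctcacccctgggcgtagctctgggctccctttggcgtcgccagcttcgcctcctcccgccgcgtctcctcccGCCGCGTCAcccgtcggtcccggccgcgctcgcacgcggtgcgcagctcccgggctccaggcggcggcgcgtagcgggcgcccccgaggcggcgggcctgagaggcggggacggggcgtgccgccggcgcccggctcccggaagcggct

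ABCC5, chr3:184017885-184018134, minus strand: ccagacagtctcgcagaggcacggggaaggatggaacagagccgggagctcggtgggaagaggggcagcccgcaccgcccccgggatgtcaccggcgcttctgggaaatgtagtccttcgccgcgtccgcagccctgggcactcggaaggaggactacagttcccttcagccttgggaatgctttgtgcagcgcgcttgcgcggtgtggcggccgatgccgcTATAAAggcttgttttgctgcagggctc

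In ABCA1 the capitals mark a pair of LXR half-sites spaced by 4 bases (DR4, searched as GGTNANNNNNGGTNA on both strands), which starts 69 bases before the gene start and reads on the opposite strand. Of the 35116 promoters of the table, 0.533% held this pattern in their 250 bases. In ABCC4 the capitals mark a match to the core of the antioxidant response element (TGACNNNGC, both strands), the element bound by NRF2, at 149 bases before the start, and 10.9% of all promoters held one. In ABCC5 they mark a TATA box (TATAAA) at 28 bases before the start, which 10.7% of promoters held on either strand. ABCC4 had no match to the TATA box, the GC box (GGGCGG, in 42.6% of promoters), the CCAAT box (CCAAT, in 32.0%) or the palindromic E-box (CACGTG, in 6.34%), whereas ABCA1 had 3 GC boxes, a TATA box and an E-box. The sequence of ABCC4 was 80.4% G and C, that of ABCC5 64.8% and that of ABCA1 61.6%. These matches are descriptions of letters, and no binding was measured in the data used here.

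ABCC4 lost most of its mRNA in 2 of the 3 resistant lines and gained in the third. Its gene lies on chromosome 13 at 95672089 to 95953729, minus strand, in GRCh37. The libraries of A2780 read 6.88, 6.84 and 6.77 log2 CPM and those of CP70 4.75, 4.80 and 4.60. In PEA1 the values were 7.69, 7.39 and 7.76, and in PEA2 5.29, 5.40 and 5.61. Every library of the resistant line lay below every library of its sensitive partner in both of these pairs. The log2FC of ABCC4 was -2.11 in the A2780 pair (SE 0.147, 95% CI -2.42 to -1.81, FDR 2.9e-10), a 4.32-fold lower level in CP70. In the PEA pair it was -2.18 (SE 0.147, 95% CI -2.49 to -1.87, FDR 1.3e-10), a 4.53-fold lower level in PEA2. The difference between these 2 changes was -0.07 on the log2 scale, with an interval from -0.50 to 0.36 (FDR 0.80).

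In the PEO pair the libraries of PEO1 read 3.27, 3.13 and 3.60 log2 CPM for ABCC4 and those of PEO4 4.24, 3.89 and 4.17. These groups did not overlap, and here the resistant line was the higher one. The log2FC was 0.77 (SE 0.147, 95% CI 0.46 to 1.07, FDR 0.00027), from 24 to 80 reads in PEO1 and 44 to 54 in PEO4. The change in the PEO pair differed from that in the A2780 pair by 2.88 (SE 0.207, FDR 7.3e-10) and from that in the PEA pair by 2.95 (SE 0.207, FDR 4.6e-10). Ordered from high to low, the lines ran PEA1, A2780, PEA2, CP70, PEO4 and PEO1, and no 2 neighbours in this order overlapped. Both PEO lines, the sensitive one included, thus lay below both of the resistant lines in which ABCC4 had fallen.

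ABCA1, the lipid exporter, showed the largest change of the 6. It lies on chromosome 9 at 107543287 to 107690436, minus strand, in GRCh37. In PEA1 it had 6.78, 7.27 and 6.97 log2 CPM and in PEA2 3.71, 3.97 and 3.36, with no overlap. The log2FC was -3.33 (SE 0.317, 95% CI -3.99 to -2.66, FDR 2.1e-08), which is 10.0-fold. PEA1 was the high line here, since the highest library of any other line was at 3.97.

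The fall in the PEO pair started from a low level. PEO1 had 2.14, 2.94 and 2.42 log2 CPM of ABCA1 and PEO4 0.64, 1.12 and 1.79, which were 13 to 35 reads against 4 to 8 reads. The groups did not overlap, and the log2FC was -1.32 (SE 0.317, 95% CI -1.98 to -0.66, FDR 0.0022). In A2780 the libraries read 2.21, 2.17 and 2.48 and in CP70 2.41, 1.68 and 2.43. These overlapped, with a log2FC of -0.11 and an interval from -0.78 to 0.55 (FDR 0.81). The changes in the PEA and A2780 pairs differed by -3.21 (SE 0.448, FDR 4.6e-06), and those in the PEO and PEA pairs by 2.01 (SE 0.448, FDR 0.00073).

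ABCC5, the exporter of cyclic nucleotides and folate analogues also called MRP5, changed in all 3 pairs, and not in the same direction. It lies on chromosome 3 at 183637722 to 183735727, minus strand, in GRCh37. Its values were 5.01, 4.34 and 4.77 log2 CPM in PEA1 and 5.96, 5.66 and 5.87 in PEA2. All of the PEA2 libraries were above those of PEA1, with a log2FC of 1.12 (SE 0.143, 95% CI 0.82 to 1.42, FDR 1.3e-06). In A2780 it had 5.59, 5.56 and 5.55 and in CP70 5.01, 4.89 and 4.83, all lower, with a log2FC of -0.65 (SE 0.143, 95% CI -0.95 to -0.35, FDR 0.0010). In PEO1 it had 5.75, 5.71 and 5.69 and in PEO4 5.18, 5.33 and 5.20, again all lower, with a log2FC of -0.48 (SE 0.143, 95% CI -0.78 to -0.18, FDR 0.010).

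The change of ABCC5 in the PEA pair differed from that in the A2780 pair by 1.77 (SE 0.203, FDR 3.7e-07), and the PEO pair differed from the PEA pair by -1.60 (SE 0.203, FDR 1.4e-06). The difference between the PEO and A2780 pairs was 0.17 with an interval from -0.25 to 0.59 (FDR 0.52). ABCC5 and ABCC4 moved in opposite directions in the PEA and PEO pairs and both fell in the A2780 pair. The PEA1 and CP70 levels of ABCC5 overlapped at the low end of the order, and those of PEA2 and PEO1 at the high end, so the resistant lines PEA2 and CP70 lay at opposite ends.

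**Figure D2:**
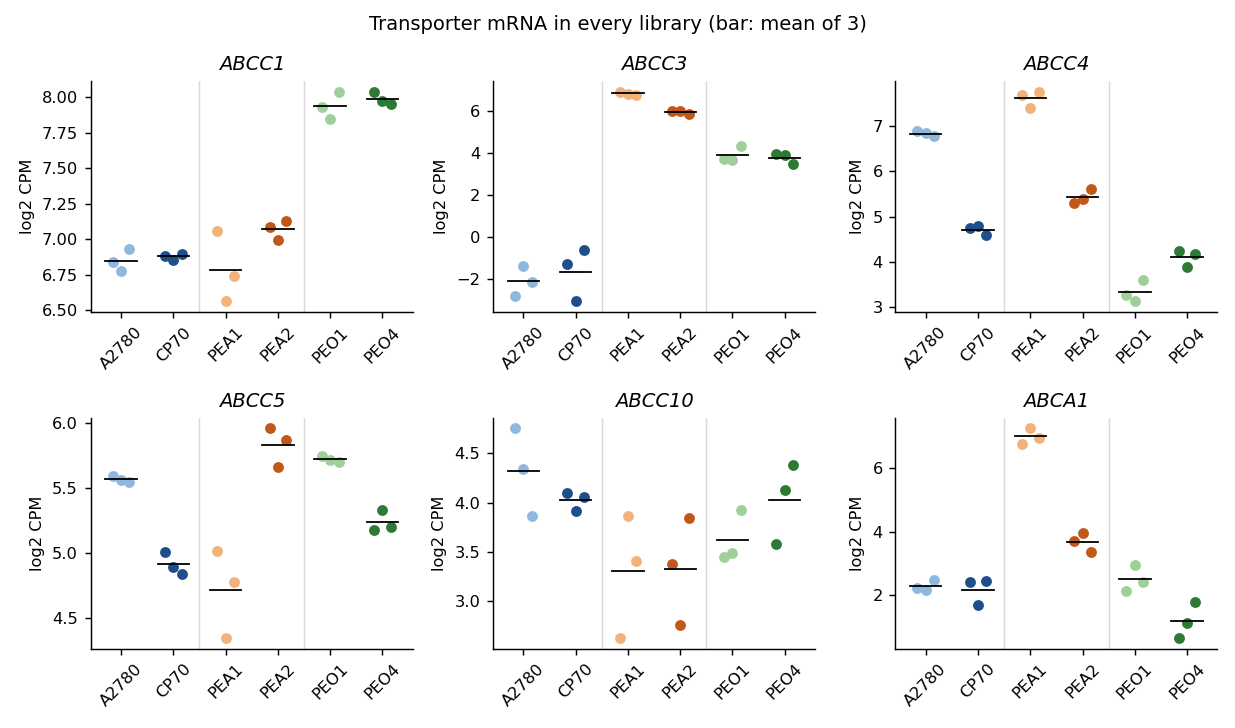
Normalized expression (log2 CPM) of the 6 transporters in each of the 18 libraries, with a bar at the mean of the 3 libraries of a line and a separate vertical axis for each gene. ABCC4 was at 4.60 to 4.80 in CP70 against 6.77 to 6.88 in A2780, ABCA1 stood out in PEA1 at 6.78 to 7.27, and the libraries of ABCC10 overlapped within every pair.

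ABCC3, the exporter of bile salts and glucuronides also called MRP3, varied more between lines than within pairs. Its gene is on chromosome 17 at 48712138 to 48769614, plus strand, in GRCh37. The 3 libraries of A2780 held 0, 1 and 0 reads and those of CP70 2, 0 and 2, so both lines were at or under the 3-read limit and no fold was taken. PEA1 had 6.93, 6.80 and 6.78 log2 CPM and PEA2 6.01, 6.01 and 5.87. The PEA2 libraries were all lower, and the log2FC was -0.88 (SE 0.462, 95% CI -1.84 to 0.09), which did not pass the test (FDR 0.11). The 18 libraries share 1 estimate of the spread in this fit, the near-empty A2780 and CP70 libraries included, and with the PEA libraries fitted alone the same log2FC of -0.88 had an FDR of 0.00013. PEO1 had 3.69, 3.67 and 4.34 and PEO4 3.94, 3.89 and 3.48, which overlapped, with a log2FC of -0.13 (95% CI -1.09 to 0.84, FDR 0.86).

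The line means of ABCC3 spanned 8.96 on the log2 scale, a wider span than that of 96.1% of all genes. The low end was the A2780 mean of -2.12, on 0 or 1 reads per library. That value depends on the reads added, so the size of the ABCC3 span is uncertain. The line means of ABCA1 spanned 5.83 and those of ABCC4 4.28, against a median of 1.88 over all genes. ABCC1, ABCC5 and ABCC10 spanned 1.20, 1.12 and 1.02, narrower than the median gene.

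ABCC1 showed little change within pairs, with the smallest standard error of the 6 (0.102). It lies on chromosome 16 at 16042995 to 16237114, plus strand, in GRCh37. In A2780 it had 6.84, 6.77 and 6.93 log2 CPM and in CP70 6.88, 6.86 and 6.90, with a log2FC of 0.03 (95% CI -0.18 to 0.24, FDR 0.84). PEO1 had 7.93, 7.85 and 8.04 and PEO4 8.03, 7.97 and 7.95, with a log2FC of 0.05 (95% CI -0.17 to 0.26, FDR 0.75). In both of these pairs the interval stayed within 0.26 of no change on the log2 scale. PEA1 had 7.06, 6.56 and 6.74 and PEA2 7.08, 6.99 and 7.13, which overlapped. The log2FC in the PEA pair was 0.28 (95% CI 0.07 to 0.50, FDR 0.021), and the call was lost without PEA1 replicate 2 (0.17, FDR 0.15), without PEA1 replicate 3 (0.26, FDR 0.063), without PEA2 replicate 3 (0.25, FDR 0.068) and under both other scalings. PEO1 and PEO4 overlapped each other and stood above all 12 libraries of the other lines.

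ABCC10, the exporter also called MRP7, for which taxanes are known substrates, passed the test in no pair. It lies on chromosome 6 at 43395104 to 43418165, plus strand, in GRCh37. A2780 had 4.75, 4.34 and 3.86 log2 CPM and CP70 4.10, 3.91 and 4.06 (log2FC -0.29, 95% CI -0.98 to 0.39, FDR 0.50). PEA1 had 2.63, 3.87 and 3.41 and PEA2 3.38, 2.76 and 3.85 (log2FC 0.03, 95% CI -0.66 to 0.71, FDR 0.95). PEO1 had 3.45, 3.49 and 3.92 and PEO4 3.58, 4.13 and 4.38 (log2FC 0.41, 95% CI -0.27 to 1.09, FDR 0.34). The libraries overlapped in each pair, and with as few as 8 reads in a PEA1 library the intervals are too wide to set a close limit on any change. Its order over the lines held no neighbours that were apart.

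**Figure D3:**
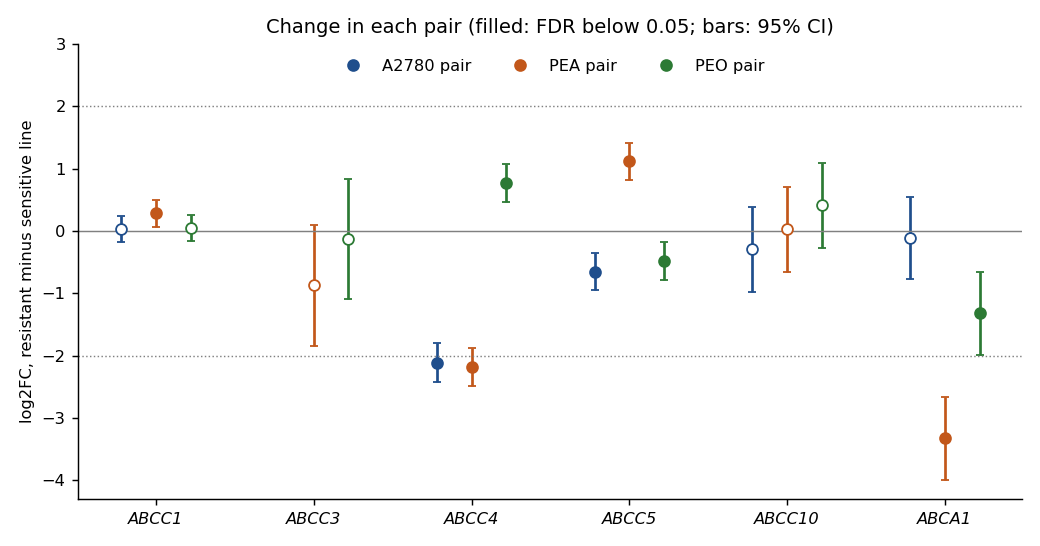
The log2FC of each transporter in each pair (resistant minus sensitive line), with bars for the 95% CI, filled points for FDR below 0.05 and dotted lines at a log2FC of 2 and -2. ABCC3 in the A2780 pair is left out because both lines were at or under 3 reads. ABCC4 at -2.11 and -2.18 and ABCA1 at -3.33 passed the lower dotted line, and ABCC5 at 1.12 was the largest rise.

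Counted over the 6 genes, 0 were higher and 2 lower in CP70 at an FDR below 0.05, where 22.2% of all genes were higher and 17.7% lower. In PEA2, 2 were higher and 2 lower, against 32.5% and 29.4% of all genes. In PEO4, 1 was higher and 2 were lower, against 19.6% and 21.9%. Changes of this kind were common in the table, and nothing is read from these counts about the transporters as a group. With a log2FC beyond 2 as well, 1 gene was lower in CP70 (ABCC4) and none was higher, where the shares of all genes were 3.4% and 5.66%. In PEA2, 2 were lower (ABCC4 and ABCA1) and none higher, against 6.15% and 7.93%. In PEO4 none passed in either direction, against 3.37% lower and 2.86% higher. The median log2FC of the 6 was -0.20, -0.42 and -0.04 in the A2780, PEA and PEO pairs, beside -0.02, 0.01 and -0.02 for all genes.

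The change differed between pairs for several members, and such differences were common in the table. For the PEA against the A2780 pair, ABCC5 and ABCA1 passed, where 57.5% of all genes did. ABCC4 and ABCA1 passed for the PEO against the A2780 pair, where 47.5% did, and ABCC4, ABCC5 and ABCA1 for the PEO against the PEA pair, where 58.7% did. The call of ABCA1 for the PEO against the A2780 pair (-1.21, FDR 0.032) was lost in 7 of the 18 fits that left out 1 library (A2780 replicates 1 and 2, CP70 replicates 1 and 3, PEO1 replicate 2, and PEO4 replicates 1 and 2), where the difference was between -0.94 and -1.17 and the FDR between 0.056 and 0.096. No transporter passed in the same direction in all 3 pairs. The share of all genes that did was not counted, so nothing is read from this about the transporters. A linear model with pair and sensitivity as terms called ABCC4 (-1.17, SE 0.343, FDR 0.021) and ABCA1 (-1.59, SE 0.371, FDR 0.0061), where 24.1% of all genes were called, although ABCC4 had risen in PEO4. With the 3 pair differences taken as the replicates, limma called neither gene (FDR 0.95 for both, unadjusted p of 0.17 for ABCC4 and 0.097 for ABCA1), and it called 0 of all genes, with 88 genes at an unadjusted p below 0.05.

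The PEA pair differed in more than these transporters. Of the 9 serous epithelium markers, 7 were higher in PEA2 with a log2FC above 2 and none was lower, beside 7.93% and 6.15% of all genes. Their summed level, on unscaled library totals, was 450.3 to 604.1 CPM in PEA1 against 2573 to 2813 in PEA2. KRT7, an epithelial keratin, had 1 to 3 reads in PEA1 and 1968 to 3913 in PEA2, and MUC16, the CA125 antigen, 0 to 5 and 211 to 576. COL1A1, a collagen of fibroblasts, went the other way with 513 to 649 reads against 7 to 11, while COL3A1 and DCN had 0 reads in both lines. PTPRC, the pan-leukocyte CD45, had 0 reads in PEA1 and 46 to 70 in PEA2, and CDH5, an endothelial cadherin, 0 and 66 to 88. These were the only genes of 4 leukocyte and 3 endothelial markers with a row. In bulk RNA a smaller share of a cell type and less RNA per cell cannot be told apart, and the part of these differences in the transporter results was not tested. In the PEO pair, 2 of the 9 serous markers were higher and 1 lower in PEO4, near the 19.6% and 21.9% of all genes. In the A2780 pair 3 were higher and none lower in CP70, beside 22.2% and 17.7%. Of 3 fibroblast markers with a row, 1 was higher and none lower in each of these pairs. In the A2780 pair it was DCN, with 4 to 12 reads in A2780 and 80 to 150 in CP70. COL3A1 had 1495 to 2527 reads in A2780 and 3228 to 5810 in the deeper CP70 libraries and was not called there. In the PEO pair the marker called was COL3A1, with 0 reads in PEO1 and 156 to 193 in PEO4.

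The genes beside ABCC4 and ABCA1 were then read, the 5 with a row on each side in GRCh37 gene order. In the A2780 pair, 8 of the 10 neighbours of ABCC4 were lower in CP70, none was higher, beside 17.7% and 22.2% of all genes, and their median log2FC was -1.21 against -0.02 for all genes. DZIP1, a ciliary basal body protein and the next gene with a row, had a log2FC of -3.46 (FDR 1.5e-12). GPC6, a glypican on the other side, had -2.89 (FDR 3.9e-10). GPC5, another glypican, had -4.64 (FDR 5.6e-08), on 38 to 68 reads in A2780 and 1 to 5 in CP70. MIR17HG, the host transcript of the miR-17-92 cluster, had -3.17 (FDR 8.3e-09). TGDS (-1.21), UGGT2 (-1.20), RAP2A (-1.11) and DNAJC3 (-1.04) fell by less, and GPR180 (-0.17) and MBNL2 (-0.60) did not pass. The lower level of ABCC4 in CP70 was thus shared by most of these 10 genes. Measured between gene starts on the chromosome, they lay from -3672 kb (MIR17HG) to 2414 kb (RAP2A) of ABCC4. The nearest were GPR180 at -418 kb and DZIP1 at 558 kb.

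In the PEA pair the neighbourhood of ABCC4 was mixed, with 5 of the 10 higher in PEA2, 2 lower and a median log2FC of 0.32. GPC5 had 0 reads in every PEA1 and PEA2 library, so its value in that median depends on the reads added. Of all genes, 32.5% were higher and 29.4% lower in that pair, so these counts do not set the neighbourhood apart. The 5 higher were MBNL2 (1.36, FDR 0.00068), MIR17HG (1.24, FDR 0.00058), UGGT2 (1.01, FDR 0.00014), GPR180 (0.66, FDR 0.00033) and DNAJC3 (0.30, FDR 0.045). The 2 lower were DZIP1 (-1.70, FDR 4.4e-08) and GPC6, which went from 58 to 95 reads in PEA1 to 1 or 2 in PEA2. In the PEO pair 3 of the 10 were higher in PEO4 and 2 lower, near the 19.6% and 21.9% of all genes. Those higher were GPC6 (2.63, FDR 4.0e-09), UGGT2 (0.53, FDR 0.032) and DZIP1 (0.43, FDR 0.048). GPR180 (-0.76, FDR 0.00016) and RAP2A (-0.47, FDR 0.020) were lower. DZIP1 and GPC6 therefore had the direction of ABCC4 in all 3 pairs, an observation made after their values were seen.

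Genes around ABCA1 went in both directions in the PEA pair. TMEM246 went from 25 to 46 reads in PEA1 to 0 or 1 in PEA2. RALGAPA1P (1.18, FDR 0.00038), TMEM38B (0.54, FDR 0.039) and SLC44A1, a choline transporter (0.51, FDR 0.011), were higher. In the PEO pair FSD1L (-1.51, FDR 0.00055), TMEM38B (-0.61, FDR 0.031) and SLC44A1 (-0.49, FDR 0.022) were lower in PEO4. In the A2780 pair SLC44A1 was higher in CP70 (2.82, FDR 1.8e-11), and SMC2, a condensin subunit, was lower (-0.74, FDR 0.00015).

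**Figure D4:**
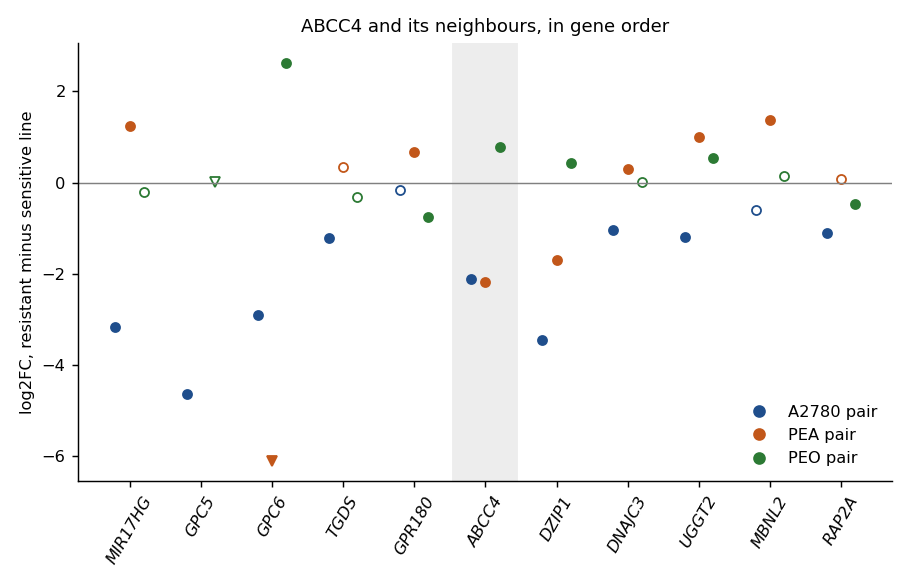
The log2FC in each pair for ABCC4 (grey band) and for the 5 genes with a row on each side, in gene order and not to scale of distance. Filled symbols mark FDR below 0.05, circles are genes with more than 3 reads in a library of both lines, and triangles mark a pair in which one line (the resistant line for those pointing down) had at most 3 reads in every library, where the plotted value depends on the reads added. In the A2780 pair 8 of the 10 neighbours of ABCC4 lay below 0 at that FDR, and in the PEA pair 2 did.

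The mRNAs of the receptors and transcription factors known to act on ABC genes were described from a list of 20 regulators, of which 16 had a row. Of these 16, 8 were higher and 2 lower in the A2780 pair, beside 22.2% and 17.7% of all genes. The 8 include AHR, with 0 reads in A2780 and 0 to 3 in CP70, where the value depends on the reads added. They also include NR1H2 (FDR 0.048) and NFE2L2 (FDR 0.046), close to the threshold. In the PEA pair 8 were higher and 5 lower, beside 32.5% and 29.4%, and in the PEO pair 4 and 4, near the 19.6% and 21.9% of all genes. NR1H3, which encodes LXR alpha, fell in CP70 (log2FC -2.16, FDR 7.0e-06) and rose in PEA2 (0.99, FDR 0.0077) and PEO4 (1.24, FDR 0.0024). NR1H3 had 6 to 9 reads in PEA1 and 23 to 30 in PEA2, and 21 to 61 in PEO1 and 46 to 62 in PEO4. ABCA1 was lower in PEA2 and PEO4. NR1H2, which encodes LXR beta, had a log2FC of -0.03 (FDR 0.93) in the PEA pair and -0.02 (FDR 0.96) in the PEO pair. SREBF2, the sterol-sensing factor behind cholesterol synthesis, rose in PEA2 (1.73, FDR 1.1e-09) and fell in PEO4 (-2.34, FDR 5.5e-11), whereas ABCA1 fell in both. NR1H2 and SREBF2 were chosen after their values were seen. A part of the LXR genes or SREBF2 in the ABCA1 values was not tested.

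NFE2L2, which encodes NRF2, was higher in all 3 resistant lines, with a log2FC of 0.24 (FDR 0.046) in CP70, 0.53 (FDR 4.8e-05) in PEA2 and 1.32 (FDR 9.1e-10) in PEO4. ABCC4 fell in the first 2 of these and rose in the third, and a part of NRF2 in this was not tested. The share of all genes called with the same sign in all 3 pairs was not counted. PPARG, a nuclear receptor of lipid metabolism, had the largest values of the list. It went from 0 reads in A2780 to 72 to 96 in CP70, which is at least 18.2-fold higher when A2780 is set to 3 reads per library, and from 44 to 127 reads in PEO1 to 2 in each library of PEO4. In the PEA pair it was lower in PEA2 (-2.04, FDR 0.00031). AHR, the aryl hydrocarbon receptor, had 0 to 3 reads in A2780 and CP70 and was the regulator that rose most in PEA2 (2.31, FDR 6.0e-05).

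Scaffold proteins hold several ABCC transporters at the cell surface, and all 6 of the scaffold list had a row. Of these, 4 were higher and none lower in CP70, where 22.2% of all genes were higher and 17.7% lower. In PEA2 2 were higher and 2 lower, about the shares of all genes (32.5% and 29.4%), and in PEO4 3 were higher and 2 lower, beside 19.6% and 21.9%. PDZK1, a PDZ protein of the apical membrane, rose in CP70 (5.14, FDR 5.5e-12) and PEO4 (1.78, FDR 2.9e-05) and fell in PEA2 (-3.05, FDR 9.9e-09). EZR, which encodes ezrin and was chosen after its values were seen, rose in CP70 (2.61, FDR 2.6e-14) and fell in PEO4 (-0.39, FDR 0.0032). SLC9A3R1, a PDZ adaptor of ABCC proteins, rose in PEO4 (1.80, FDR 2.5e-11) and fell in PEA2 (-0.57, FDR 4.0e-05). SLC9A3R2, its paralogue, rose in PEA2 (2.33, FDR 1.2e-09) and fell in PEO4 (-0.53, FDR 0.023). MSN, which encodes moesin, was higher in each resistant line, by 0.40 (FDR 0.00047), 1.28 (FDR 5.3e-11) and 0.29 (FDR 0.0074) in the order CP70, PEA2 and PEO4. As for NFE2L2, the share of all genes with the same sign in all 3 pairs was not counted.

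Of 38 other ABC genes, 20 had a row. In CP70, 8 of them were higher and 4 lower, beside 22.2% and 17.7% of all genes, so the count of lower genes was near the share of all genes. In PEA2 3 were higher and 8 lower, beside 32.5% and 29.4%, and in PEO4 6 were higher and 7 lower, beside 19.6% and 21.9%. The count for CP70 includes ABCA12, which had 0 or 1 reads in A2780 and 3 or 4 in CP70. The lysosomal transporter ABCA5 had the largest rise in CP70 (log2FC 3.93, FDR 6.1e-08), on 2 to 4 reads in A2780 and 62 to 113 in CP70. ABCD4, which serves lysosomal cobalamin export, had the largest fall there (-1.23, FDR 0.0018). In PEA2 the phagocytosis-related ABCA7 rose most (3.28, FDR 3.1e-07), and ABCC6, a member of the ABCC branch whose loss causes pseudoxanthoma elasticum, went from 16 to 20 reads to at most 3. In PEO4 ABCA12, a keratinocyte lipid transporter, rose most (3.44, FDR 7.4e-05), on 0 to 8 reads in PEO1 and 13 to 15 in PEO4. The surfactant lipid transporter ABCA3 fell most in that pair (-4.06, FDR 2.7e-11), from 367 to 1027 reads to 21 to 24.

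ABCB10, a mitochondrial transporter of the branch that holds ABCB6, was lower in CP70 (-1.10, FDR 4.7e-06) and PEO4 (-0.77, FDR 0.00031) and higher in PEA2 (0.45, FDR 0.012). ABCD3, the peroxisomal fatty acid transporter, was the only ABC gene with a row that was called with the same sign in each of the 3 pairs. It was lower by a log2FC of -0.93 (FDR 4.0e-07), -0.49 (FDR 0.00047) and -0.71 (FDR 1.7e-05) in CP70, PEA2 and PEO4. The share of all genes called with the same sign in all 3 pairs was not counted. TAP1, the peptide transporter of antigen presentation, rose in CP70 (2.88, FDR 8.3e-08) and PEO4 (1.59, FDR 0.00017) and had -0.64 (FDR 0.063) in PEA2. Its partner TAP2 rose in the same 2 lines (0.71, FDR 0.00080, and 1.06, FDR 1.3e-05). TAP1 and TAP2 fall outside the rule for named genes and were chosen after their values were seen, as was ABCD3.

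**Figure D5:**
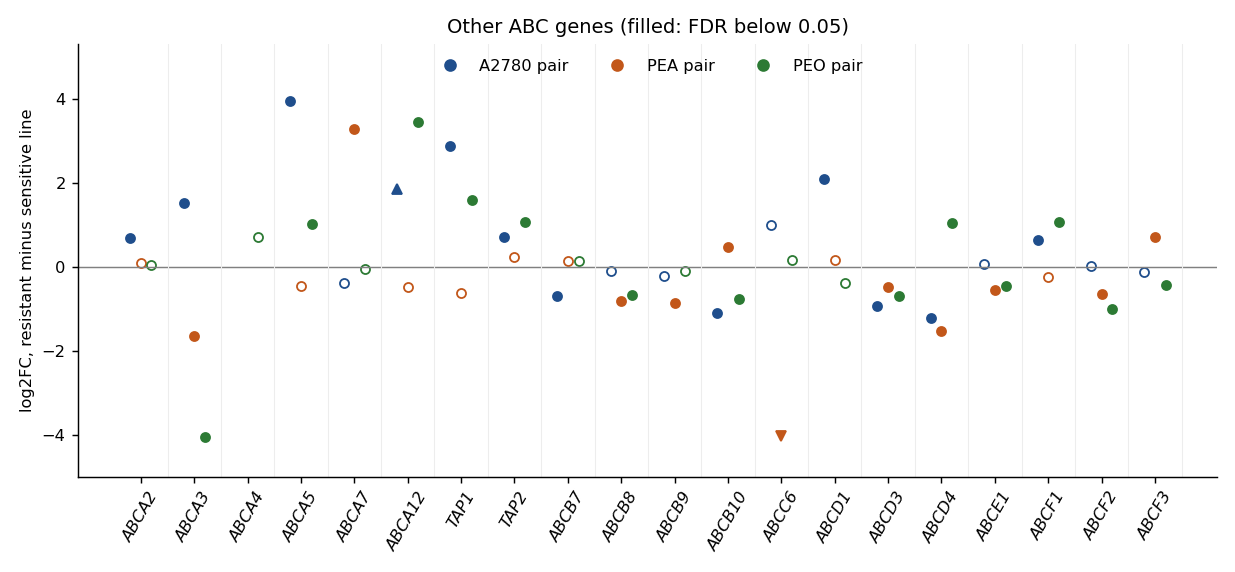
The log2FC (resistant minus sensitive line) of the 20 other ABC genes with a row in each of the 3 pairs, with filled symbols for FDR below 0.05. A triangle pointing up or down marks a sensitive or a resistant line, respectively, with at most 3 reads in every library, and a pair in which both lines were at that limit is left out. ABCD3 has 3 filled points below 0, and ABCA3 runs from 1.51 in the A2780 pair to -4.06 in the PEO pair.

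The genes whose log2 CPM most resembled that of the 3 widest-ranging transporters over the 18 libraries were also found, as a description, since libraries of a line are near copies of each other. For ABCC3 they were PVRL3 (Pearson r = 0.981), a cell adhesion nectin, and LPCAT2 (r = 0.977), a lysophospholipid acyltransferase. For ABCA1 they were RAB8B (r = 0.967) and ZNF697 (r = 0.963), and for ABCC4 TNFRSF10B (r = 0.960), a TRAIL receptor, and ADAMTS3 (r = 0.944). Among the transporters themselves, ABCC4 and ABCA1 had an r of 0.69 and ABCC1 and ABCC4 one of -0.79 over the 18 libraries. The A2780 and CP70 values of ABCC3 in this comparison rest on at most 2 reads per library.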

How the data were processed

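RNA was sequenced from 18 libraries, 3 for each of 6 lines, after rRNA depletion and with a strand-specific kit. The authors aligned reads to hg19, assigned them to known genes with featureCounts (the strand setting is not given in the sources used here) and normalized them with limma. The submitters' processing notes also name Bowtie2. The deposited table gives log2 CPM for 12853 genes, computed on a scaled library size after adding 0.5 reads. Whole reads were recovered from 100% of the values and gave the depth and the level per length. The tolerance was 0.01 of a read up to 100 reads and grew in proportion to the count above that. For the largest counts this check could not fail. Counting limits cover counting error only.

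The deposited log2 values were fitted with limma 3.58.1 in R 4.3.3, with a variance trend, in 1 model with a mean per line. Changes were called at an FDR below 0.05, and at |log2FC| above 2 as well. The calculations were tested on simulated data. Groups came from the line names in the sample titles. Exon lengths, spans and gene order came from a GRCh37 annotation that matched 12642 of the table's identifiers and missed 211.

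The transporters and all gene lists were chosen with earlier results of these data known. Named genes are the 6 transporters, the largest and smallest log2FC past the FDR in each list and pair, the sister genes, called neighbours of ABCC4 and ABCA1 (one result under this rule is not reported here), and the 2 most similar genes of the 3 widest-ranging transporters. Alternatives were each pair alone, a mean log2 value above 0, quantile normalization, unscaled library totals, voom weights from recovered reads, 2 reads added, limma without the trend, the replicate block, |log2FC| above 1, the 3 pair differences as replicates, and leaving out each library. Overlapping genes on the opposite strand (a processed pseudogene in ABCC1, a snoRNA and a non-coding RNA in ABCC4, ABCC5-AS1 in ABCC5, DLK2 in ABCC10 and a non-coding RNA in ABCA1) had no row.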

Additional observations from a re-analysis of the deposited data

Results flagged for a closer look

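In 7 instances the change of a transporter differed between 2 pairs at an FDR below 0.05 in the limma test of the difference itself. The change of ABCC5 in the PEA pair exceeded that in the A2780 pair by 1.77 on the log2 scale, and the PEO pair differed from the PEA pair by -1.60. For ABCC4 the PEO pair differed from the A2780 pair by 2.88 and from the PEA pair by 2.95. For ABCA1 the PEA pair differed from the A2780 pair by -3.21, the PEO pair differed from the A2780 pair by -1.21 (FDR 0.032), and the PEO pair differed from the PEA pair by 2.01. The call of -1.21 was lost in 7 of the 18 fits that left out 1 library, with an FDR up to 0.096, and the other 6 kept their call in all 18. The shares of all genes with such differences were 57.5%, 47.5% and 58.7% for the PEA against A2780, PEO against A2780 and PEO against PEA pairs.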

How the results depend on the processing

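Of 468 values (18 transporter results under 26 alternatives), 445 kept their direction and side of the FDR threshold, 6 lost the call, 6 gained it and 11 reversed, and 11 of the 18 results kept both throughout, among them ABCC4 and ABCC5 in every pair and ABCA1 in the PEA and PEO pairs. The reversed values were all of results without a call. With 2 reads added, ABCC3 in the A2780 pair gave -0.082 and ABCC10 in the PEA pair -0.036. ABCC10 in the PEA pair gave -0.069 with voom weights and -0.22 with unscaled library totals. Leaving out 1 library at a time, the log2FC ranged from -0.0051 to 0.072 for ABCC1, from -0.059 to 1.18 for ABCC3 and up to 0.13 for ABCA1 in the A2780 pair, from -0.31 to 0.31 for ABCC10 in the PEA pair, and from -0.24 to 0.095 for ABCC3 in the PEO pair. Without CP70 replicate 2, ABCC3 in the A2780 pair passed (1.18, FDR 0.018), with at most 2 reads in any library. The cause was not tested.

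ABCC1 in the PEA pair lost its call with the pair alone (FDR 0.11), quantile normalization (log2FC 0.15, FDR 0.22) and unscaled totals (0.04, FDR 0.75). These 2 scalings moved the median of all genes in that pair by -0.11 and -0.24. ABCC3 in the PEA pair passed with the pair alone (FDR 0.00013), voom weights (2.7e-05), 2 reads added (0.0085), unscaled totals (0.040) and without CP70 replicate 2 (0.028), against 0.11 as reported. At |log2FC| above 1, 1 transporter (ABCA1) was called in PEO4 in place of 0. The difference between the PEO and A2780 pairs was called for 1 to 3 transporters when 1 library was left out, against 2 as reported. ABCA1 was lost in 7 of the 18 such fits, and ABCC3 was gained without CP70 replicate 2 (-1.30, FDR 0.039), with at most 2 reads in A2780 and CP70. With the 3 pair differences as replicates the linear model called 0. Same-numbered libraries did not deviate together (correlations from -0.035 to 0.048), so the replicate numbers do not pair them. With the replicate block the transporters called were 2, 4 and 3 in the A2780, PEA and PEO pairs, as without it. None of the 120 calls among the listed and neighbouring genes changed sign under another scaling. The 4 to 8 reads of ABCA1 in PEO4 and the 0 to 2 of ABCC3 in A2780 and CP70 limit what can be said of them.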
